A study of Homo sapiens with 4 samples.

Results

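The genes described here are 48 genes of homologous recombination and Fanconi anaemia repair, chosen by symbol from 57773 genes in the deposited tables. Each symbol matched 1 row, and all 48 genes passed the filter on low counts. The RNA came from A2780 cells, a long-established line from a human ovarian cancer, in 4 libraries whose genotype is given as WT. In 2 libraries, numbered 1 and 2, the cells had received the solvent DMSO, with no treatment time given. In the other 2, numbered 3 and 4, they had received the plant flavone wogonin at 10 ug/mL for 48 h. The study asks whether wogonin acts on ovarian cancer through DNA demethylation, and the values here are transcript levels, not repair activity. The labels do not say whether cells of a group were grown apart, so the p-values below cover the spread between these samples alone, which may be technical. Positions are on GRCh37.

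Homologous recombination repairs a broken chromosome by copying the intact sister, so it works mainly in S and G2 phase. The MRE11A-RAD50-NBN complex finds the break and starts to trim its ends, the BRCA1-BARD1 and PALB2-BRCA2 proteins load the recombinase on the exposed strand, and its paralogs steady the filament. The Fanconi pathway acts where the strands are cross-linked: a core complex attaches ubiquitin to FANCD2 and FANCI, which bring nucleases and then recombination to the lesion. Ovarian cancers often carry defects in these genes, and such tumours are known for their sensitivity to platinum drugs and PARP inhibitors.

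Exon reads ranged from 11005921 to 11839562 per library, and the 48 genes took between 26843 and 33649 of them. The floor of 3 reads used here corresponded to 0.253 to 0.273 CPM, counts scaled to a common library size. The CPM values of genes below are scaled to library sizes adjusted by TMM, edgeR's correction for composition. The intron share of gene reads was 7.96% in wogonin 3, against 5.26 to 5.61% in the other libraries. Mitochondrial genes took 3.03% of exon reads in wogonin 4, against 1.45 to 1.67% in the rest. Of 10 epithelial and ovarian carcinoma markers, 9 had fewer than 10 reads in every library, among them EPCAM, KRT8, CDH1 and PAX8, and the intermediate filament gene VIM had 101014 to 120974 reads. Of 8 immune markers 6 were at 0 in all libraries, CD14 had at most 3 reads and CD68 had 165 to 254. Of 5 endothelial markers 4 had an entry, and 2 of these were at 0 in all libraries. The summed fibroblast markers, nearly all COL3A1, ran from 8843 to 9187 reads in DMSO and from 6593 to 6598 in wogonin.

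After wogonin 20 of the 48 genes fell and 13 rose, and 15 did not pass (edgeR quasi-likelihood test, Benjamini-Hochberg adjusted p under 0.05 over 13449 genes). The falls included every subunit of the break-sensing complex, BRCA1, BARD1 and BRCA2, FANCD2 and FANCI, and the helicases BLM, WRN and BRIP1. The rises included PALB2, RNF168, EME1, XRCC2, ATR and ERCC4. The share called, 68.8%, lay close to the 63.8% of all genes tested that passed, with 41.7% lower against 31.5% and 27.1% higher against 32.3% of all genes. DESeq2 called 28 of the 48 genes (58.3%), against 49.8% of all genes. The groups of libraries did not overlap for 38 of the 48 genes (79.2%), against 81.9% of all genes. In bulk RNA a lower level can come from fewer cells with a transcript or from less of it per cell, and these cannot be told apart.

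Most changes were small. Only RAD51B passed the test with a change of at least 1 log2 unit, which is 2.08% of the 48 genes, against 16.3% of all genes tested. Among genes that passed, the median size was 0.47 log2 units for the repair genes and 0.62 for all genes. The repair genes and all genes were not matched for read depth, on which the size that can pass depends. Over all 48 genes the median log2 fold change was -0.086, beside -0.00066 over all genes tested, and the single values ran from -1.02 to 0.83. Under upper-quartile scaling, or library totals alone, the median of all genes moved to -0.093 and the split became 10 higher and 22 lower, while that of all genes became 3663 higher and 4976 lower with upper-quartile scaling, and 3657 and 4974 with library totals, from 4343 and 4234. Of the 48 genes, 16 share bases with another gene of at least 40 mean exon reads, mostly on the opposite strand, and without a known strand setting their reads are uncertain. No gene that passed changed its direction under any of the 14 alternatives run.

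**Figure D1:**
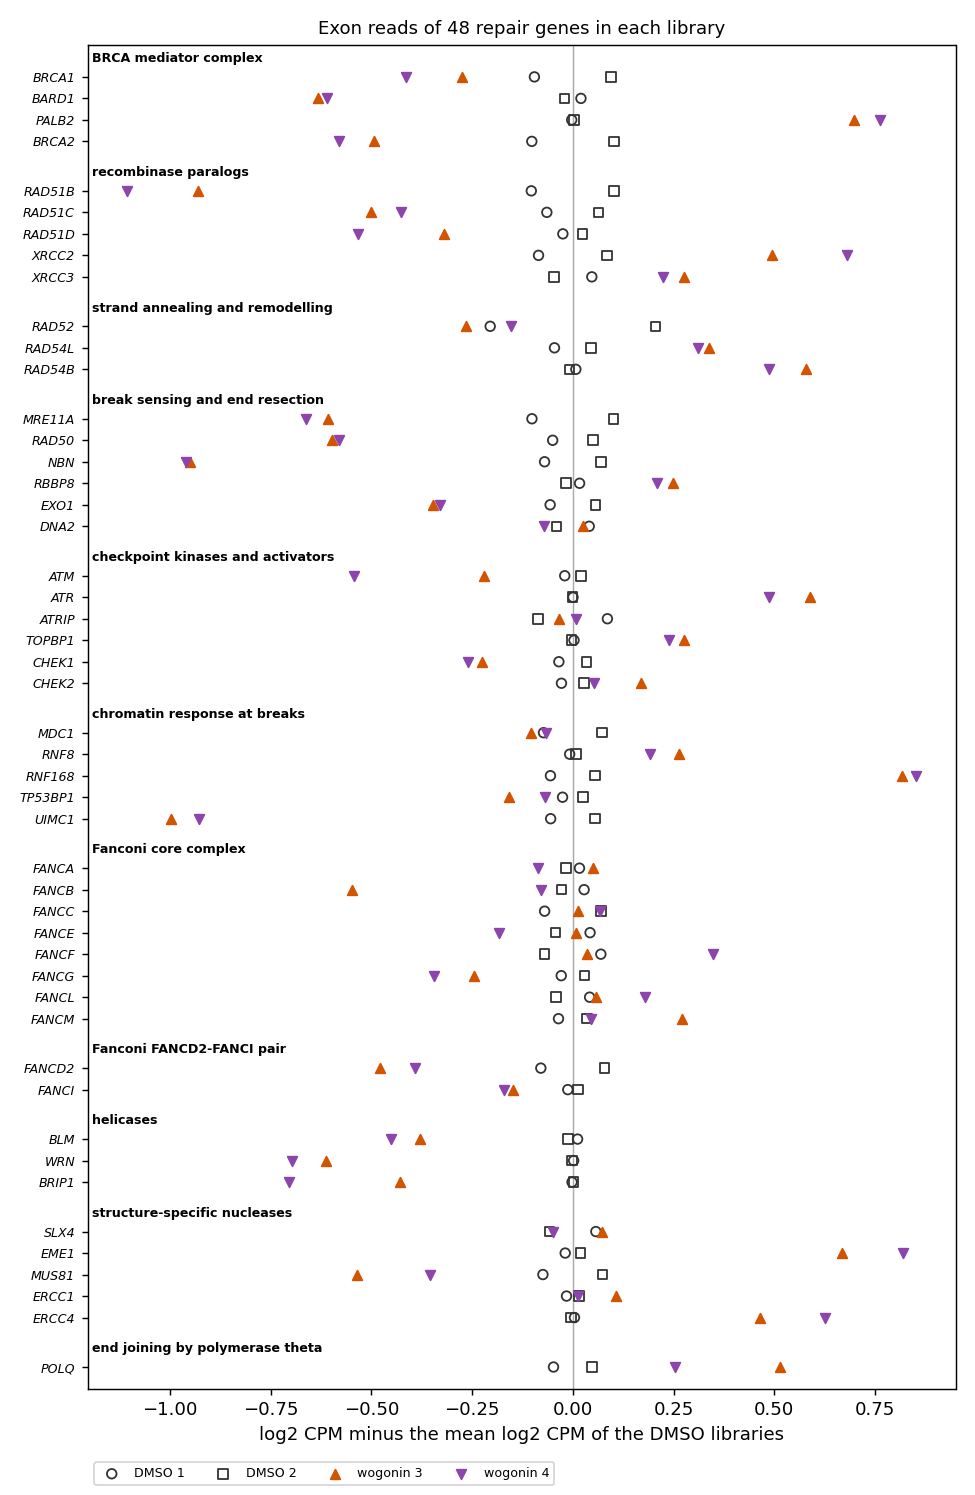
Exon reads of the 48 genes in each library, as log2 CPM (x axis) minus the mean log2 CPM of the DMSO libraries, with genes on the y axis grouped by role. Open symbols are DMSO 1 and 2, filled triangles wogonin 3 and 4; for NBN, RAD51B and UIMC1 the wogonin triangles lie far left of both open symbols, for PALB2 and RNF168 far right, and those of the Fanconi core genes mostly lie near them.

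The cell cycle genes that were counted beside the repair genes did not move one way. Over all genes tested 32.3% rose and 31.5% fell. Of 26 G2 and mitosis genes 25 fell and none rose, with a median log2 fold change of -0.98; KIF20A, a cytokinesis kinesin, fell by 2.60 and NUSAP1, a spindle protein, by 1.58 on the log2 scale. Of 26 S phase and replication genes 16 rose and 7 fell, with a median of 0.33. In that list the flap nuclease gene FEN1 rose by 1.01 on the log2 scale and the helicase subunit gene MCM4 by 0.77, while the ribonucleotide reductase gene RRM2 fell by 1.02 and the polymerase gene POLA1 by 0.50. Recombination genes are known to be transcribed mostly in S and G2 phase, and the part of the cell cycle in their changes was not tested.

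The genes of the break-sensing complex fell together. NBN, the subunit that recruits the ATM kinase (ENSG00000104320, chromosome 8, 90945564 to 91015456), stood at 86.1 and 94.9 CPM in DMSO 1 and 2, and 46.8 and 46.5 CPM in wogonin 3 and 4. The treated libraries were nearly equal and both lay far below the DMSO libraries, and the log2 fold change was -0.96 ± 0.080 (SE, adjusted p = 3.5e-08, edgeR). RAD50, the ATPase that tethers the ends (ENSG00000113522, chromosome 5, 131891711 to 131980313), stood at 174 and 187 CPM in DMSO, against 119 and 121 CPM in wogonin, giving a log2 change of -0.59 ± 0.063 (SE, adjusted p = 5.7e-07, edgeR). The nuclease gene MRE11A (ENSG00000020922, chromosome 11, 94152895 to 94227074) was at 30.2 and 34.7 CPM in DMSO, against 21.3 and 20.5 CPM in wogonin, giving a log2 change of -0.64 ± 0.11 (SE, adjusted p = 8.7e-05, edgeR). For each of these 3 genes no treated library reached the lower DMSO library, and groups did not overlap for 81.9% of all genes tested. NBN overlaps DECR1, and MRE11A overlaps ANKRD49, both on the opposite strand, and the strand setting of the counting is not given in the sources used here. In exon-exon reads, which cross a splice junction, the log2 fold changes were -0.91 for NBN, -0.65 for RAD50 and -0.68 for MRE11A, and all 3 passed.

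The other genes of end resection went in different directions. RBBP8, whose product CtIP activates the MRE11A nuclease, was at 108 and 105 CPM in DMSO, against 127 and 123 CPM in wogonin, a rise of 0.23 ± 0.065 (SE, adjusted p = 0.0056, edgeR) on the log2 scale. That rise did not pass without DMSO 2 (log2 fold change 0.21, adjusted p = 0.051, edgeR) or with library totals alone (0.14, adjusted p = 0.081, edgeR), where the median of all genes moved to -0.093. The exonuclease gene EXO1, which carries out long-range resection, fell from 45.8 and 49.5 CPM to 37.4 and 37.9 CPM (log2 fold change -0.34, adjusted p = 0.0034, edgeR). DNA2, the nuclease and helicase that acts in parallel with EXO1, was at 24.4 and 23.1 CPM in DMSO, against 24.2 and 22.6 CPM in wogonin, and its groups overlapped (adjusted p = 0.87, edgeR).

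In the group that loads the recombinase, PALB2 went against its partners. PALB2, the bridge between BRCA1 and BRCA2 (ENSG00000083093, chromosome 16, 23614488 to 23652631), stood at 40.8 and 40.9 CPM in DMSO 1 and 2, and 66.4 and 69.3 CPM in wogonin 3 and 4. The DMSO libraries were almost equal, both treated libraries were higher, and the log2 fold change was 0.73 ± 0.081 (SE, adjusted p = 8.2e-07, edgeR). BRCA2, which delivers the recombinase (ENSG00000139618, chromosome 13, 32889611 to 32973805), stood at 84.7 and 97.6 CPM in DMSO, against 64.6 and 60.8 CPM in wogonin, giving a log2 change of -0.54 ± 0.083 (SE, adjusted p = 2.9e-05, edgeR). BARD1, the obligate partner of BRCA1 in its ubiquitin ligase (ENSG00000138376, chromosome 2, 215590370 to 215674428), stood at 46.5 and 45.2 CPM in DMSO, against 29.6 and 30.1 CPM in wogonin, giving a log2 change of -0.62 ± 0.091 (SE, adjusted p = 1.8e-05, edgeR). BRCA1 (ENSG00000012048, chromosome 17, 41196312 to 41277500) stood at 109 and 124 CPM in DMSO, against 95.9 and 87.1 CPM in wogonin, giving a log2 change of -0.35 ± 0.079 (SE, adjusted p = 0.0012, edgeR). BARD1, BRCA1 and BRCA2 were thus lower in both treated libraries than in either DMSO library. Groups did not overlap for 81.9% of all genes tested. The calls of BARD1, BRCA1 and BRCA2, like that of PALB2, held in all 14 alternatives run.

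Promoter sequence is shown for MRE11A and RAD50, which fell together, for PALB2, which rose while its partners fell, and for BRIP1, which fell and held the most matches of the 4. RefSeq promoter windows on GRCh38.p14 were found for 43 of the 48 genes by gene ID, 60 windows in all. The sequences are the 250 bases before the annotated start, 5′ to 3′ in the direction of the gene, and capitals mark matches to 3 motifs of cell cycle promoters, searched on both strands.
MRE11A, chr11:94493845-94494094, minus strand: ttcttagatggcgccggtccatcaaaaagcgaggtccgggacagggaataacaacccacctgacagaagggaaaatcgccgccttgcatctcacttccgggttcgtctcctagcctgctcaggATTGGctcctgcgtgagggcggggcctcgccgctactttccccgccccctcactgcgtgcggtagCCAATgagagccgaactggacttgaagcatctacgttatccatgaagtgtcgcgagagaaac
RAD50, chr5:132556727-132556976, plus strand: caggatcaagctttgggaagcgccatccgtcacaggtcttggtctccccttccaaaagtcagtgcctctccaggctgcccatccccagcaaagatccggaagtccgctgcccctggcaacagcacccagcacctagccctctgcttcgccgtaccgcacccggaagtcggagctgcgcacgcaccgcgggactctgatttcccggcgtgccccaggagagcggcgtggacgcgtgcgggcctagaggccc
PALB2, chr16:23641311-23641560, minus strand: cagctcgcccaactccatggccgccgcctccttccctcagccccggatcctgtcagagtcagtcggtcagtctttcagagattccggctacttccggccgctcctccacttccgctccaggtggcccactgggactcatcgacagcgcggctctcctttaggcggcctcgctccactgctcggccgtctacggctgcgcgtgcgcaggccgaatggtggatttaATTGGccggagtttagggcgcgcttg
BRIP1, chr17:61863529-61863778, minus strand: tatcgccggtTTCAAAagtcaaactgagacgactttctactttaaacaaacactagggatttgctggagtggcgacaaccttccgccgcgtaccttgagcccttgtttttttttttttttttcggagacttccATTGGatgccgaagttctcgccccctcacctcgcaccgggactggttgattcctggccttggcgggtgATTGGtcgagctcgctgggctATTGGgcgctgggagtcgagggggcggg

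The motifs searched were the CCAAT box bound by NF-Y (CCAAT), the CHR element (TTTGAA or TTCGAA) and E2F sites (TTTCCCGC, TTTGGCGC, TTTCGCGC, TTTGCCGC or TTTGCGC). None of these contains another, and no match overlaps another in the windows printed. BRIP1 held 3 CCAAT boxes and 1 CHR, MRE11A held 2 CCAAT boxes, PALB2 held 1, and RAD50 held no match to any of the 3 motifs in this window. A CCAAT box was found in 7 of 17 genes that fell, 4 of 12 that rose and 8 of 14 that did not pass, against 37.0% of all genes in the table. A CHR was found in 2 of 17 genes that fell, 1 of 12 that rose and 3 of 14 that did not pass (all genes 17.2%). An E2F site was found in 2 of 17 that fell, RAD51C and EXO1, in 0 of 12 that rose and in 3 of 14 that did not pass (all genes 5.26%). A match is a run of letters, not a measured site, and these shares come from few genes.

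The 5 recombinase paralogs split by gene. RAD51B, part of the complex with RAD51C, RAD51D and XRCC2 (ENSG00000182185, chromosome 14, 68286496 to 69196935), showed the largest change of the 48 genes, from 23.8 and 27.5 CPM in DMSO to 13.4 and 11.9 CPM in wogonin, giving a log2 change of -1.02 ± 0.13 (SE, adjusted p = 3.1e-06, edgeR). In gene reads, which add its many intron reads, the value was -0.42 and did not pass (adjusted p = 0.46, edgeR), while in exon-exon reads it was -1.13 and passed. RAD51C was at 32.2 and 35.2 CPM in DMSO, against 23.8 and 25.1 CPM in wogonin, a fall of 0.47 on the log2 scale (adjusted p = 8.4e-04, edgeR). RAD51D had 224 and 241 exon reads in DMSO, against 166 and 145 in wogonin (means 19.3 and 14.4 CPM), a fall of 0.42 (adjusted p = 0.0079, edgeR). The RAD51D call was lost with DESeq2 (adjusted p = 0.089), without DMSO 2 (log2 fold change -0.40, adjusted p = 0.056, edgeR) and without wogonin 4 (-0.32, adjusted p = 0.070, edgeR), and 21.4% of its exon reads were counted as unique in the deposited tables. XRCC2, the smallest member of that complex, rose instead, from 22.0 and 24.7 CPM to 32.9 and 37.3 CPM (log2 fold change 0.59, adjusted p = 1.7e-04, edgeR). Its exon-exon reads are few, 10 and 11 in DMSO against 12 and 19 in wogonin, and with them the value of 0.71 did not pass (adjusted p = 0.17, edgeR).

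XRCC3, which pairs with RAD51C, passed by a small margin (35.7 and 33.4 CPM in DMSO, against 41.8 and 40.4 CPM in wogonin, log2 fold change 0.25, adjusted p = 0.026, edgeR). It overlaps KLC1 on the opposite strand, 57.0% of its exon reads were counted as unique in the deposited tables, and in these the log2 fold change was 0.016 (adjusted p = 0.91, edgeR). The call was lost in 8 of 14 alternatives. These included DESeq2 (adjusted p = 0.15), library totals alone (0.16, adjusted p = 0.15, edgeR), upper-quartile scaling (adjusted p = 0.15, edgeR) and exon-exon reads (0.16, adjusted p = 0.29, edgeR). It was also lost without DMSO 1, DMSO 2 or wogonin 3 (log2 fold changes 0.28, 0.20 and 0.23, edgeR adjusted p = 0.059, 0.16 and 0.093).

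Among genes that remodel or anneal the filament, the translocase genes rose. RAD54L, a motor that helps strand exchange, was at 45.8 and 48.8 CPM in DMSO, against 59.7 and 58.6 CPM in wogonin (log2 fold change 0.32, adjusted p = 0.0025, edgeR). Its gene lies across LRRC41 on the opposite strand, and in exon-exon reads the value of 0.19 did not pass (adjusted p = 0.10, edgeR). RAD54B, its homologue, was at 23.5 and 23.2 CPM in DMSO, against 34.9 and 32.7 CPM in wogonin (log2 fold change 0.53, adjusted p = 2.2e-04, edgeR), with the libraries of each group close together. RAD54B shares its strand and region with FSBP, which had 63, 77, 0 and 27 exon reads in DMSO 1, DMSO 2, wogonin 3 and wogonin 4, and 30.4% of RAD54B exon reads were counted as unique in the deposited tables. The RAD54B value was 0.41 in unique exon reads, 0.71 in exon-exon reads and 0.10 in gene reads, where it did not pass (adjusted p = 0.40, edgeR). RAD52, which anneals single strands, was at 16.5 and 21.9 CPM in DMSO, against 15.8 and 17.1 CPM in wogonin; its groups overlapped and it did not pass (log2 fold change -0.22), though it did without DMSO 1 (-0.43, adjusted p = 0.031, edgeR).

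The checkpoint kinases ATM and ATR moved in opposite directions. ATR, which answers to single-stranded DNA at stalled forks (ENSG00000175054, chromosome 3, 142168077 to 142297668), stood at 34.8 and 34.7 CPM in DMSO 1 and 2, and 52.3 and 48.7 CPM in wogonin 3 and 4. Both treated libraries were above the nearly equal DMSO libraries, with a log2 fold change of 0.54 ± 0.089 (SE, adjusted p = 6.3e-05, edgeR). ATM, which answers to broken ends (ENSG00000149311, chromosome 11, 108093211 to 108239829), stood at 78.7 and 80.9 CPM in DMSO 1 and 2, and 68.5 and 54.8 CPM in wogonin 3 and 4. Wogonin 4 was the lower of the treated libraries, and the log2 fold change was -0.37 ± 0.095 (SE, adjusted p = 0.0034, edgeR), or -0.23 without wogonin 4 (adjusted p = 0.043, edgeR). For ATM 69.5% of exon reads were counted as unique, and in these the log2 fold change was -0.38. The ATR activator TOPBP1 rose from 124 and 124 CPM to 150.3 and 146 CPM (log2 fold change 0.26, 0.17 with library totals alone). ATRIP, the partner that ATR needs, had 16.5 and 14.7 CPM in DMSO, against 15.2 and 15.7 CPM in wogonin, and its groups overlapped (adjusted p = 0.93, edgeR).

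Downstream, CHEK1, the effector kinase of ATR, was at 65.4 and 68.6 CPM in DMSO, against 57.3 and 56.0 CPM in wogonin, a fall of 0.24 on the log2 scale (adjusted p = 0.012, edgeR). That call was lost with DESeq2 (adjusted p = 0.078), in exon-exon reads (log2 fold change -0.10, adjusted p = 0.39, edgeR) and without DMSO 2 (-0.21, adjusted p = 0.083, edgeR). CHEK2, the effector kinase of ATM, did not pass, at 22.0 and 22.8 CPM in DMSO, against 25.2 and 23.2 CPM in wogonin (log2 fold change 0.11).

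Among genes of the chromatin response, the largest rise of the 48 genes stood beside a large fall. RNF168, the ligase that marks histone H2A for 53BP1 (ENSG00000163961, chromosome 3, 196195654 to 196230639), stood at 44.2 and 47.7 CPM in DMSO 1 and 2, and 80.9 and 82.9 CPM in wogonin 3 and 4. The treated libraries lay close together and far above the others, giving a log2 change of 0.83 ± 0.079 (SE, adjusted p = 1.4e-07, edgeR). UIMC1, or RAP80, which carries BRCA1 to ubiquitin chains (ENSG00000087206, chromosome 5, 176332006 to 176449634), stood at 60.5 and 65.3 CPM in DMSO 1 and 2, and 31.5 and 33.0 CPM in wogonin 3 and 4. Here the treated libraries were about equally far below, giving a log2 change of -0.96 ± 0.088 (SE, adjusted p = 9.7e-08, edgeR). Both calls held in all 14 alternatives run.

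RNF8, the ligase that acts before RNF168, was at 36.6 and 37.0 CPM in DMSO, against 44.2 and 42.0 CPM in wogonin (log2 fold change 0.23, adjusted p = 0.035, edgeR). The RNF8 call was lost in 8 of 14 alternatives, among them DESeq2 (adjusted p = 0.18) and the fits without DMSO 1, DMSO 2 or wogonin 3 (log2 fold changes 0.20, 0.23 and 0.20). MDC1, the scaffold on marked histones, and TP53BP1, which holds back resection, did not pass (log2 fold changes -0.086 and -0.11). With library totals alone, and so a median over all genes of -0.093, they were at -0.18 and -0.21 and passed as lower. TP53BP1 also passed as lower in exon-exon reads (-0.20, adjusted p = 0.041, edgeR), where the median over all genes was -0.015. For MDC1 35.9% of exon reads were counted as unique, and in these the log2 fold change was -0.12 and did not pass.

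In the Fanconi core complex 1 of 8 genes passed, beside 63.8% of all genes tested, and this difference was not tested. The gene was FANCG, at 58.0 and 60.4 CPM in DMSO, against 49.9 and 46.6 CPM in wogonin, giving a log2 change of -0.29 ± 0.082 (SE, adjusted p = 0.0051, edgeR). The treated libraries were both below the DMSO libraries for FANCG. The log2 fold changes of the other 7 were -0.017 for FANCA, -0.29 for FANCB, 0.038 for FANCC, -0.085 for FANCE, 0.20 for FANCF, 0.12 for the ligase subunit FANCL and 0.16 for the translocase FANCM. Their adjusted p-values by edgeR ran from 0.16 to 0.88, which does not show that they were equal in both groups. Standard errors were 0.088 to 0.13 log2 units, and 0.29 for FANCB, which had 41, 41, 25 and 35 exon reads and is the least covered of the 48 genes. FANCF passed without wogonin 3 (log2 fold change 0.35, adjusted p = 0.027, edgeR), its value in wogonin 4 being the highest of the 4 (29.4 CPM against 22.0 to 24.3).

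The substrates of the core complex were lower. FANCD2 (ENSG00000144554, chromosome 3, 10068098 to 10143614) stood at 80.8 and 90.2 CPM in DMSO 1 and 2, and 61.3 and 65.1 CPM in wogonin 3 and 4. For FANCD2 the groups did not overlap, as for 81.9% of all genes tested, and the log2 fold change was -0.44 ± 0.080 (SE, adjusted p = 1.6e-04, edgeR). Its partner FANCI (ENSG00000140525, chromosome 15, 89787180 to 89860492) was at 219 and 223 CPM in DMSO, against 199 and 196 CPM in wogonin, a smaller change of -0.16 ± 0.057 (SE, adjusted p = 0.022, edgeR). The FANCI call was lost with DESeq2 (adjusted p = 0.075) and without DMSO 2, wogonin 3 or wogonin 4 (log2 fold changes -0.15, -0.16 and -0.15, edgeR adjusted p = 0.095, 0.055 and 0.066). FANCI overlaps POLG on the opposite strand, and FANCD2 has a pseudogene copy, FANCD2P2, with 0 to 7 exon reads per library.

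**Figure D2:**
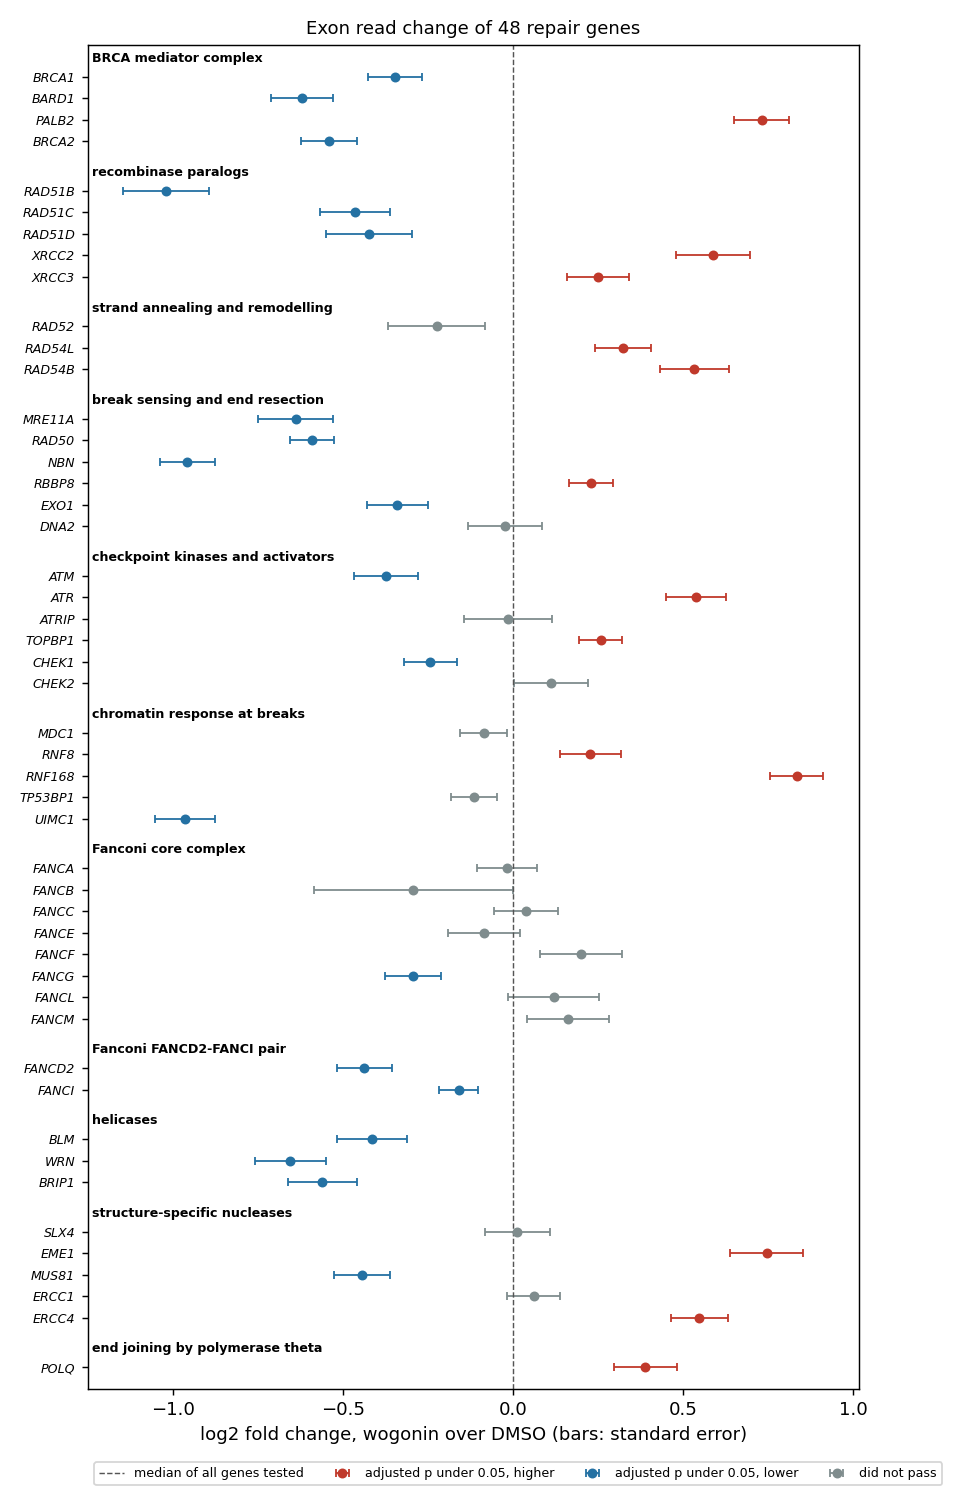
Log2 fold change of exon reads, wogonin over DMSO (x axis, with standard errors as bars), for the 48 genes grouped by role on the y axis; red and blue points passed the edgeR test as higher or lower, grey points did not, and the dashed line is the median of all genes tested. The break-sensing complex and the genes grouped as helicases lie left of the line, and 7 of 8 core complex genes are grey. RAD51B (-1.02) shows the largest fall and RNF168 (0.83) the largest rise.

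All 3 genes grouped here as helicases fell, where 31.5% of all genes tested fell. DNA2, a nuclease and helicase listed with end resection, did not pass (log2 fold change -0.023). WRN, the Werner syndrome helicase (ENSG00000165392, chromosome 8, 30891317 to 31031285), stood at 32.3 and 32.2 CPM in DMSO, against 21.1 and 19.9 CPM in wogonin, giving a log2 change of -0.65 ± 0.10 (SE, adjusted p = 3.9e-05, edgeR). BRIP1, the BRCA1-bound helicase also called FANCJ, whose promoter is shown above, was at 43.9 and 44.0 CPM in DMSO, against 32.7 and 27.0 CPM in wogonin, giving a log2 change of -0.56 ± 0.10 (SE, adjusted p = 1.5e-04, edgeR). BLM, which dissolves crossed intermediates, was at 29.9 and 29.4 CPM in DMSO, against 22.8 and 21.7 CPM in wogonin, giving a log2 change of -0.41 ± 0.10 (SE, adjusted p = 0.0023, edgeR). In each case the DMSO libraries were nearly equal and both treated libraries were lower. For BLM the call was lost in gene reads, which include introns (log2 fold change -0.25, adjusted p = 0.057, edgeR).

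Structure-specific nucleases work in pairs, and partners did not move alike. MUS81 (ENSG00000172732, chromosome 11, 65624597 to 65635124), the catalytic subunit that cuts branched intermediates, stood at 89.7 and 99.4 CPM in DMSO, against 65.1 and 73.8 CPM in wogonin, giving a log2 change of -0.44 ± 0.082 (SE, adjusted p = 1.9e-04, edgeR). EME1 (ENSG00000154920, chromosome 17, 48450581 to 48458844), a partner of MUS81, stood at 18.9 and 19.4 CPM in DMSO, against 30.4 and 33.8 CPM in wogonin, giving a log2 change of 0.75 ± 0.11 (SE, adjusted p = 1.5e-05, edgeR). The direction was opposite in both treated libraries. EME1 overlaps LRRC59 (2710, 2792, 4071 and 4367 exon reads in DMSO 1, DMSO 2, wogonin 3 and wogonin 4) and MUS81 overlaps CFL1, both on the opposite strand, and 34.3% of EME1 exon reads were counted as unique in the deposited tables. In exon-exon reads the log2 fold changes were 0.57 for EME1 and -0.48 for MUS81, and in unique exon reads 0.55 and -0.44, and all 4 passed.

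ERCC4, or XPF, the nuclease that unhooks cross-links (ENSG00000175595, chromosome 16, 14014014 to 14046202), stood at 45.2 and 44.9 CPM in DMSO, against 62.2 and 69.5 CPM in wogonin, giving a log2 change of 0.55 ± 0.084 (SE, adjusted p = 2.9e-05, edgeR). Its partner ERCC1 was at 62.5 and 63.9 CPM in DMSO, against 68.0 and 63.8 CPM in wogonin and did not pass (log2 fold change 0.061), with overlapping groups and -0.032 with library totals alone. SLX4, the scaffold that gathers these nucleases, was at 38.6 and 35.6 CPM in DMSO, against 39.0 and 35.9 CPM in wogonin and did not pass (log2 fold change 0.013, -0.079 with library totals alone). POLQ, the polymerase of the alternative end joining on which cells without recombination depend (ENSG00000051341, chromosome 3, 121150278 to 121264853), stood at 47.3 and 50.6 CPM in DMSO 1 and 2, and 69.9 and 58.4 CPM in wogonin 3 and 4. The treated libraries were both higher but differed from each other, and the log2 fold change was 0.39 ± 0.093 (SE, adjusted p = 0.0017, edgeR). It was 0.26 without wogonin 3 (adjusted p = 0.038, edgeR) and 0.33 without DMSO 1 (adjusted p = 0.053, edgeR).

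Levels of different genes were compared per length, in the deposited TPM (a unit scaled by transcript length), as the mean of the 2 libraries of a group. In DMSO they ran from 4.54 TPM for FANCB to 122 TPM for FANCI, with a median of 27.4 TPM. After FANCI came RAD50 (95.5 TPM), RBBP8 (89.7), TOPBP1 (81.5) and MUS81 (73.9). In wogonin FANCI was still highest (98.8 TPM), next to RBBP8 (95.4) and TOPBP1 (88.4), while RAD50 was at 57.6 TPM. PALB2 and BRCA2 had similar levels in DMSO (36.9 and 34.6 TPM) and stood at 55.5 and 21.6 TPM in wogonin. For MUS81 and EME1 the TPM values were 73.9 and 24.9 in DMSO and 49.2 and 37.8 in wogonin. The 48 genes summed to 1793 and 1908 TPM in DMSO 1 and 2, and to 1637 and 1542 TPM in wogonin 3 and 4.

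**Figure D3:**
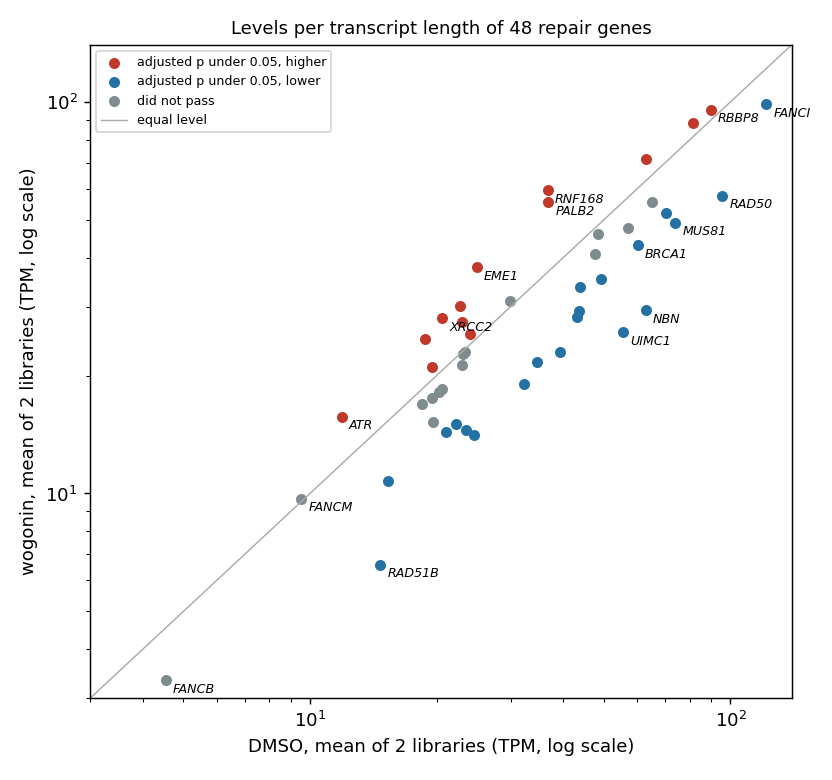
Mean deposited TPM of each gene in wogonin (y axis) against DMSO (x axis), both on log scales, with the diagonal at equal level and colours by the edgeR call. TPM carries no TMM correction, unlike the values tested. FANCI is highest and FANCB lowest in both groups, NBN, UIMC1 and RAD51B lie well below the diagonal, and RNF168, PALB2 and EME1 well above it.

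Reads in introns can come from transcripts that are not yet spliced. They were tested apart from exon reads as a second count of the same libraries, and their source was not tested. Of 45 repair genes tested 5 rose and 2 fell in intron reads, 15.6% against 20.1% of the 10494 genes tested (edgeR quasi-likelihood test). The counts were low, with a median of 47.5 intron reads per gene and library against 465 exon reads. Introns took 15.8% of the reads of the 48 genes in wogonin 3 and 8.80 to 9.94% in the other libraries. TMM scaling within the intron counts, used here, sets the typical gene to no change.

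POLQ had the largest rise in introns, with reads of 38 and 41 in DMSO 1 and 2 against 195 and 96 in wogonin 3 and 4, giving a log2 change of 1.53 (adjusted p = 0.0020, edgeR). ATR had intron reads of 80 and 67 in DMSO 1 and 2 against 296 and 184 in wogonin 3 and 4, giving a log2 change of 1.38 (adjusted p = 0.0017, edgeR). The other rises in introns were those of PALB2 (log2 fold change 1.29), FANCD2 (1.16) and TOPBP1 (1.03). All of these genes but FANCD2 also rose in exon reads. The intron calls of PALB2, FANCD2 and TOPBP1 were lost with DESeq2, and that of FANCD2 also in unique intron reads. For FANCD2 101 of 216 intron reads were counted as unique, 16 and 15 in DMSO against 50 and 20 in wogonin. For PALB2 64 of 111 were unique. RAD54B and ERCC4 fell in introns, by 0.95 and 1.01 on the log2 scale, and both had risen in exon reads; most RAD54B intron reads were not counted as unique. DESeq2 called 2 of the 45 as higher in introns and 1 as lower, beside 994 of the 10494 genes tested in either direction. Without DMSO 1 or without DMSO 2 the edgeR calls in introns became far fewer, among the 45 and among all genes.

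The difference between the exon and the intron change was tested in 1 model and passed for 6 of 45 genes, 13.3% against 10.7% of all genes tested. ERCC4 had intron reads of 71 and 60 in DMSO 1 and 2 against 43 and 37 in wogonin 3 and 4, and its exon change exceeded its intron change by 1.55 ± 0.31 (SE, adjusted p = 0.0048, edgeR) on the log2 scale. For RAD54B the difference was 1.49 ± 0.26 (SE, adjusted p = 0.0026, edgeR), with intron reads of 211 and 219 in DMSO 1 and 2 against 171 and 107 in wogonin 3 and 4. In total reads of ERCC4 and RAD54B, exons were higher and introns lower in both treated libraries. The RAD54B introns overlap FSBP: 50 of its 708 intron reads were counted as unique, 2 and 7 in DMSO against 33 and 8 in wogonin, too few to pass the filter and not lower after wogonin. FANCD2 showed the reverse, with intron reads of 25 and 31 in DMSO 1 and 2 against 108 and 52 in wogonin 3 and 4, more in each treated library, and a difference of -1.60 ± 0.33 (SE, adjusted p = 0.0066, edgeR). With unique reads it was -1.23 and did not pass (adjusted p = 0.059, edgeR). The same direction was found for MRE11A (-1.27, adjusted p = 0.023, edgeR), BLM (-1.13, adjusted p = 0.029, edgeR) and POLQ (-1.12, adjusted p = 0.025, edgeR). Over the 45 genes the median difference was -0.32, beside 0.024 over all genes. Without DMSO 1 or without DMSO 2 none of the 45 passed (edgeR), while the 6 differences kept their direction there, between 1.40 and 1.70 for ERCC4 and RAD54B and between -1.63 and -1.08 for the other 4. Without wogonin 3, the library with the high intron share, the median difference was -0.32 over the repair genes and 0.073 over all genes. Without wogonin 4 these medians were -0.32 and 0.061.

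**Figure D4:**
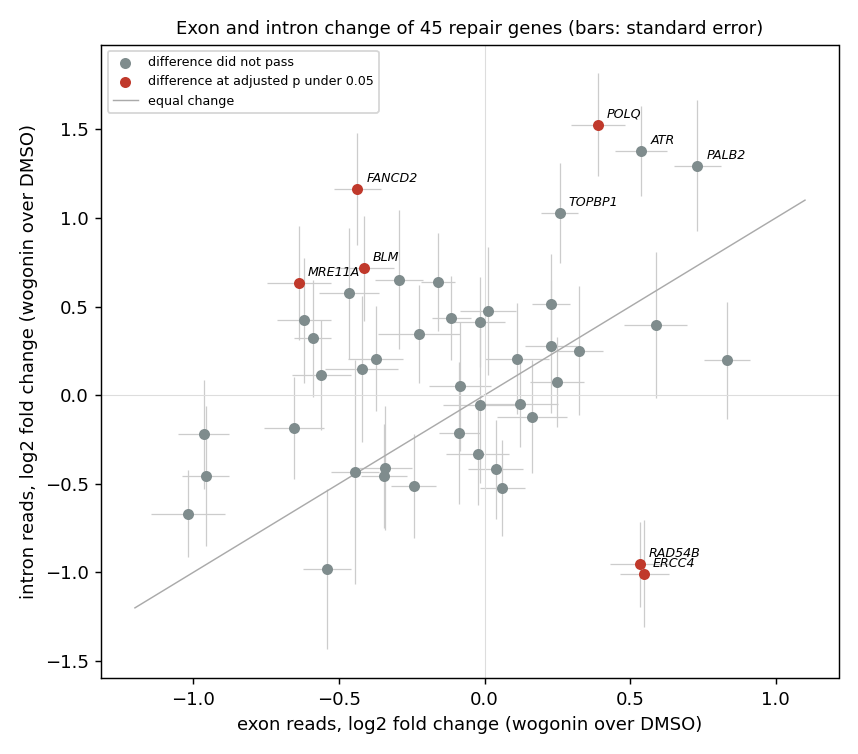
Log2 fold change, wogonin over DMSO, of exon reads (x axis) and of intron reads (y axis) for the 45 genes tested in both, with standard errors as bars and a diagonal at equal change; red points passed the test of the difference. ERCC4 and RAD54B lie at the lower right (exons higher, introns lower) and FANCD2, MRE11A and BLM at the upper left.

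Further genes of these pathways went both ways, as did all genes tested, of which 32.3% rose and 31.5% fell. Of 32 other recombination genes 10 rose and 10 fell, with a median log2 fold change of 0.048. TONSL, which guards recombination at replication forks, was at 39.4 and 39.3 CPM in DMSO, against 100.1 and 97.1 CPM in wogonin (log2 fold change 1.33, adjusted p = 6.1e-10, edgeR). RPA1, the large subunit of the single-strand binding protein, rose by 0.56. RAD51AP1, a helper of strand invasion, was at 34.1 and 37.9 CPM in DMSO, against 13.6 and 13.6 CPM in wogonin and fell by 1.41, and its relative NUCKS1 fell by 0.49.

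Of 16 other Fanconi genes tested, of 17 listed, 7 rose and 6 fell (median 0.022), beside 32.3% and 31.5% of all genes tested. WDR48, which activates the deubiquitinase that recycles FANCD2, was at 53.5 and 56.4 CPM in DMSO, against 15.7 and 19.6 CPM in wogonin, giving a log2 change of -1.64 (adjusted p = 2.8e-09, edgeR). SLX1A, the nuclease that SLX4 carries, was at 33.5 and 29.0 CPM in DMSO, against 13.3 and 12.4 CPM in wogonin and fell by 1.28. Its near-identical copy SLX1B was listed with 3 and 2 exon reads in DMSO, against 14 and 1 in wogonin, and how reads were split between the copies is uncertain. The cross-link nuclease gene FAN1 rose by 0.79 and STRA13, also called CENPX, by 0.84. Of 20 other checkpoint genes 7 rose and 9 fell (median 0.027). H2AFX, the histone variant that marks breaks, was at 139 and 121 CPM in DMSO, against 56.0 and 51.4 CPM in wogonin and fell by 1.28 on the log2 scale. The phosphatase gene CDC25B fell by 1.27 and CDC25A rose by 1.02, and PAXIP1, a partner of 53BP1, rose by 0.99. The falls of H2AFX, CDC25B and WDR48 were larger than that of any of the 48 genes.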

How the data were processed

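RNA of 4 A2780 libraries was read from the authors' deposited tables, 1 per library, with positions on the builds GRCh37 and hg19 per the submitters' processing notes. The aligner, the annotation release and the counting program with its strand setting were not given in the sources used here. Per the file headers the tables hold counts of reads in exons, introns, whole genes and across exon junctions, each as a total and a unique part, and TPM and RPKM that the authors computed from exon reads. Total exon counts were tested as deposited; TPM served for levels between genes, and RPKM for none of the results.

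The test of exon counts was that of edgeR 4.0.16, run in R 4.3.3 (filterByExpr, TMM, robust quasi-likelihood fit, treatment as single term, 2-sided, Benjamini-Hochberg over all genes tested, threshold 0.05). Intron counts of genes with exons were tested alike, and the exon minus intron change in 1 model with library as block and a read type by treatment term. Standard errors are of the log2 fold change, the absolute change over the root of F. The scripts were tested on simulated data. Alternatives were DESeq2 1.42.0, limma-voom (limma 3.58.1), other scalings, filters and count columns, and leaving out each library. Genes count as overlapping where a neighbour with a mean of at least 40 exon reads shares bases. All 48 genes are named, with up to 2 genes per direction with the smallest adjusted p of each further list. The 48 genes and the lists were chosen with earlier results of these data known. Precision is limited by 2 libraries per group, and floors hold counting error alone, as the reads carry no molecular identifiers and so are not independent molecules. Replicates of a group differed by more than sampling noise.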

Additional observations from a re-analysis of the deposited data

How the results depend on the processing

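With 2 libraries per group each fit that leaves one out compares 1 library with 2, and the lone library is assumed to vary like the others. No paired analysis was possible because the groups share no replicate numbers. Of 33 repair genes called in exon reads, 21 were called in the same direction in all 14 alternatives (6 higher, 15 lower), and the counts ran from 10 to 13 higher and from 17 to 22 lower. The share of called genes that kept their call in all 14 alternatives was not counted over all genes. Repair genes that did not pass changed sign in some settings, and passed in none of these. For FANCC the log2 fold change was 0.038 and became -0.055 (library totals), -0.054 (upper-quartile scaling), -0.037 (gene reads), -0.18 (exon-exon reads). For SLX4 the log2 fold change was 0.013 and became -0.079 (library totals), -0.079 (upper-quartile scaling), -0.0041 (no filter), -0.023 (unique exon reads), -0.012 (gene reads), -0.19 (exon-exon reads). For ERCC1 the log2 fold change was 0.061 and became -0.032 (library totals), -0.031 (upper-quartile scaling), -0.066 (unique exon reads), -0.032 (gene reads), -0.055 (exon-exon reads). For ATRIP the log2 fold change was -0.015 and became 0.00068 (unique exon reads). For RAD52 the log2 fold change was -0.22 and became 0.033 (gene reads). For FANCA the log2 fold change was -0.017 and became 0.062 (gene reads). Leaving out 1 library gave -0.10 to 0.056 for ATRIP, -0.046 to 0.10 for FANCC, -0.069 to 0.021 for DNA2, -0.049 to 0.068 for SLX4, -0.18 to 0.0037 for FANCE and -0.080 to 0.046 for FANCA. In intron reads, where 5 were higher and 2 lower, the counts were 4 and 0 with the effective library sizes of the exon counts, which put the median over all tested genes at 0.52, 2 and 1 with DESeq2, and 4 and 1 in unique intron reads; leaving out 1 library gave 1 to 8 higher and 0 to 6 lower. For the exon minus intron change (2 higher and 4 lower) unique reads gave 1 and 4, and leaving out 1 library gave 0 to 3 higher and 0 to 16 lower. For all genes, leaving out 1 library gave 7158 to 8166 calls in exon reads, 651 to 4022 in intron reads and 226 to 2787 for the difference, against 8577, 2113 and 1018 in the 4 libraries. The cause was not tested. DESeq2 called 994 genes in intron reads.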

Other observations

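Genes of the other repair pathways were counted in the same way, beside 32.3% of all genes tested that rose and 31.5% that fell. Of 6 mismatch repair genes tested 2 rose and 2 fell. MLH3 was at 17.6 and 17.1 CPM in DMSO, against 32.3 and 30.1 CPM in wogonin (log2 fold change 0.84, adjusted p = 4.1e-06, edgeR), and PMS1 rose by 0.34. PMS2 fell by 0.39 and MSH3 by 0.34 on the log2 scale. Of 16 genes of end joining without homology 2 rose, LIG4 (0.67) and POLM (0.49), and 5 fell. LIG3, a ligase of the alternative route on which POLQ acts, was at 57.4 and 56.9 CPM in DMSO, against 31.9 and 30.0 CPM in wogonin, giving a log2 change of -0.88, and XRCC1, which stabilises it, fell by 0.34. Of 17 nucleotide excision repair genes 8 rose and 5 fell (median log2 fold change 0.12). ERCC6, which acts at stalled polymerases, fell by 1.28 and the p53 target DDB2 by 0.81, while CETN2 rose by 0.81 and GTF2H3 by 0.65.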
